A study of Mus musculus with 2 samples.

Results

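Oral mesenchyme with transcripts of Lhx6 and Lhx8 was examined in cranial neural crest cells (CNCCs) sorted from mouse embryos at embryonic day E11.5. The members were chosen by their UMI counts of 11 genes. A cell belonged to it if it held 3 or more UMIs of Prrx1, Prrx2 and Twist1 together, at most 1 UMI of Sox2, Sox10 and Elavl3 together, 2 or more UMIs of Lhx6 and Lhx8 together, and 0 UMIs of Hand2, Hoxa2 and Hoxb2. A UMI is a tag that marks 1 captured transcript molecule. Among barcodes with 200 to 7500 genes and at most 10% mitochondrial UMIs, 1162 cells met this rule, of 6067 cells that passed the Prrx and Twist1 step (the mesenchyme gate) and 11212 cells in all. These members were 668 of 5625 control cells and 494 of 5587 mutant cells.

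The study asked what the loss of Tfap2a and Tfap2b, paralogous transcription factor genes, does to facial CNCCs. Control embryos were Tfap2a wt/flox and Tfap2b wt/flox, mutant embryos were Tfap2a flox/flox and Tfap2b flox/flox, and all were r26 mTmG/mTmG and Wnt1CRE+. The Wnt1:CRE transgene recombines floxed genes in the pre-migratory neural crest and in parts of the dorsal brain, and mTmG marks recombined cells with membrane GFP, and these GFP cells of the head, down to the second arch, were collected by sorting. Each group was 1 library of 2 pooled embryos, so nothing here has a replicate check, no p-value was computed, and limits in brackets are 95% limits for counting error only. The control members carried Xist and the mutant members Y-linked transcripts, and the effects of sex and genotype therefore cannot be told apart.

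Lhx6 and Lhx8 encode LIM-homeodomain transcription factors of the mesenchyme beneath the oral epithelium, from which teeth and the palate form. FGF signals of the epithelium are known to induce them there. Barx1 marks the mesenchyme of the proximal, molar-forming jaw, Osr2 acts in the palate and on the tongue side of tooth germs, Dlx5 and Dlx6 are known for lower jaw identity, and Alx genes for the frontonasal region.

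The members summed to 12594700 UMIs in the control and 9505448 in the mutant library, with medians of 17831.5 and 18105.5 UMIs per cell. In the other mesenchyme cells the medians were lower, at 14064 and 13839. A gate on UMIs can favour deep cells, and its part in this was not tested. Scrublet called 4 control and 0 mutant members doublets. Barcodes found in both libraries numbered 6, and 0 of them were members. TMM scaling would shift every log2 ratio of mutant over control by -0.01.

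Lhx8, which chose the cells, was the more abundant of the pair. Its level was 306 CPM (UMIs per 1000000 UMIs of the summed cells) in control and 299 CPM in mutant members, against 75.0 and 77.9 CPM for Lhx6. Cells with UMIs of both genes made up 55.4% of control and 61.9% of mutant members, cells with Lhx8 alone 43.4% and 35.0%, and cells with Lhx6 alone 1.198% and 3.04%. The cut itself fell in a dense range. Mesenchyme cells with 0 Hand2 and Hox UMIs and exactly 1 Lhx UMI, just outside, numbered 201 and 139, and those with 2, just inside, 106 and 87. Barx1 UMIs were found in 50.2% and 48.2% of the cells just outside and in 51.9% and 56.3% of those just inside.

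The remaining markers, Osr2 and Barx1, were read as a check of the name. Osr2 was at 37.95 CPM (control) and 38.2 CPM (mutant) in members and at 7.20 and 7.89 CPM in other mesenchyme, a log2 ratio of 2.40 (2.19 to 2.61) and 2.27 (2.04 to 2.52). Barx1 was at 604 and 628 CPM in members against 197 and 152 CPM, a log2 ratio of 1.62 (1.58 to 1.67) and 2.04 (1.99 to 2.10). Both markers were therefore higher in members than in the pooled other mesenchyme of both libraries. Part of that mesenchyme was nearer to the members, namely cells with 2 or more Dlx5 and Dlx6 UMIs, at most 1 Lhx UMI and 0 of Hand2. There Barx1 was at 411 CPM in control and 288 CPM in mutant cells, and Osr2 at 27.0 and 14.8 CPM. Among control members 67.1% had a Barx1 UMI and 18.7% an Osr2 UMI, and among mutant members 66.0% and 26.3%. In neural cells (3 or more UMIs of Sox2, Sox10 and Elavl3 with 0 of the mesenchyme genes), which should lack both and had medians of 10956.5 and 10492 UMIs, the shares were 4.29% and 2.33% for Barx1 and 0.159% and 0.155% for Osr2. Every cell was also thinned to 5000 UMIs and the gate applied again, which then held 362 control and 265 mutant members. Osr2 was detected in 10.2% of these control and 15.1% of these mutant members, and the difference of 4.87 points had limits of -0.57 to 10.6. Ratios after thinning, here and below, rest on fewer cells and UMIs and are given without limits.

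The word maxillary was not borne out for all members. Cells with a UMI of Dlx5 or Dlx6 were 48.8% of control and 49.2% of mutant members, and 30.1% and 35.1% after thinning. A UMI of Alx1 or Alx4 was found in 45.5% and 40.1%, and in 25.7% and 21.9% after thinning. The corresponding shares in neural cells were 3.095% and 2.64% for the Dlx genes and 4.84% and 2.27% for the Alx genes. Hand1, a gene of the distal lower jaw, had 0 UMIs in the members of both libraries, which allows up to 0.238 CPM in control and 0.316 CPM in mutant members at 3 counts. This is no check of identity, because the gate asks for 0 Hand2 UMIs. Mesenchyme with 2 or more Dlx5 and Dlx6 UMIs, also chosen with 0 of Hand2, had Hand1 in 1 of 326 control and 0 of 88 mutant cells. The cells are therefore called Lhx6/Lhx8 oral mesenchyme here.

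**Figure D1:**
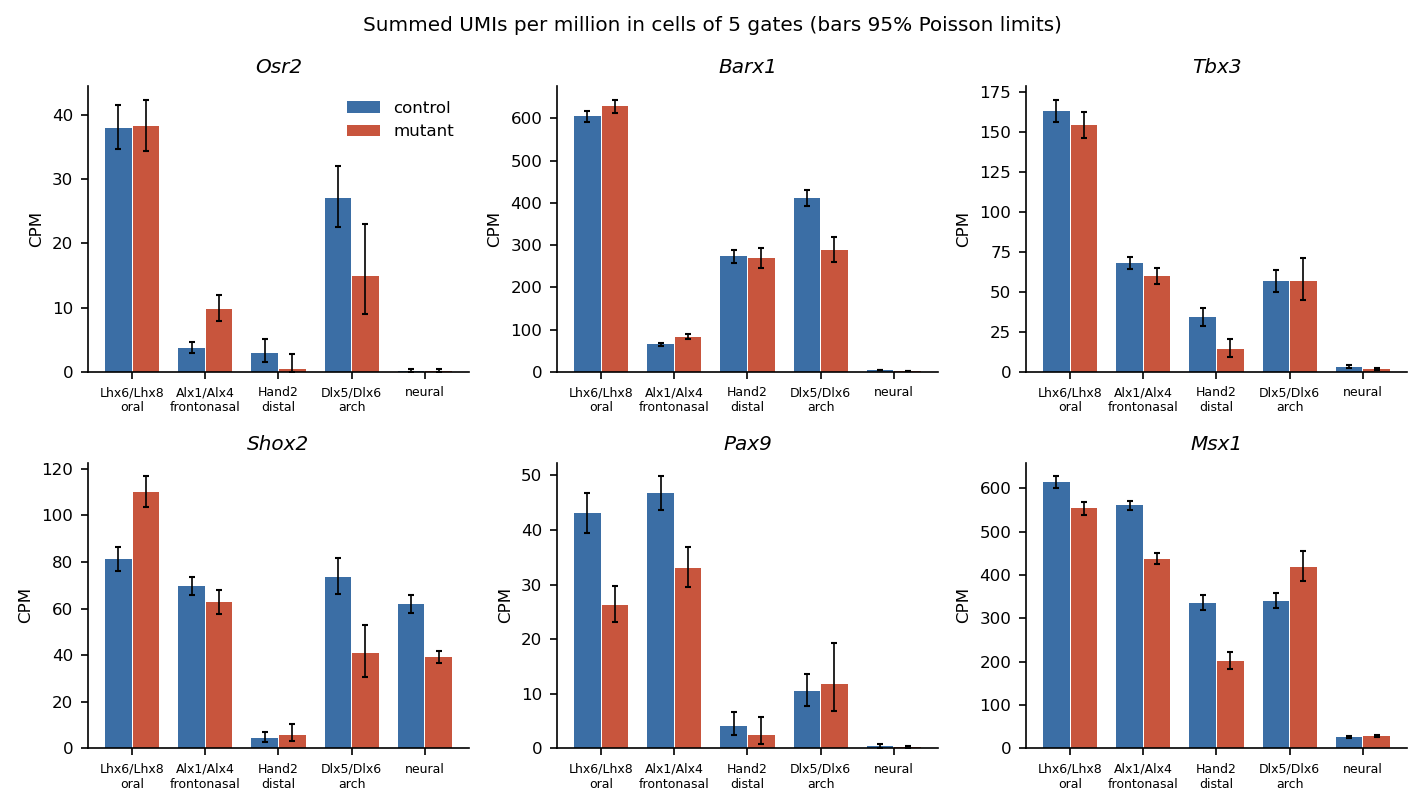
Level (CPM, vertical axes, from 0) of 6 genes in 5 groups of cells, for the control (blue) and mutant (red) library, with bars for 95% Poisson limits. The groups are the Lhx6/Lhx8 oral members, mesenchyme with 2 or more Alx1 and Alx4 UMIs, with 2 or more Hand2 UMIs, or with 2 or more Dlx5 and Dlx6 UMIs, and neural cells. Osr2, Barx1 and Tbx3 were highest in the oral members, and Shox2 was higher in mutant than in control members.

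Across genes, members were set against the other mesenchyme of the same library, as a description of what the gate collects. Genes of the Y chromosome, Xist and Tsix were left out, as were gate genes. Of 9762 genes with 100 or more UMIs in members, 44 (0.451%) were at least 2-fold higher in both libraries and 77 (0.789%) at least 2-fold lower. The most raised was AI606473 (ENSMUSG00000093738), at 27.2 and 28.4 CPM against 2.75 and 3.36 CPM, a log2 ratio of 3.30 (2.995 to 3.62) in the control and 3.08 (2.75 to 3.42) in the mutant library. AI606473 lies on GRCm38 at chr3:154330821-154334254, plus strand, and Lhx8 at chr3:154306294-154330659, minus strand. The starts face away from each other and 161 bases lie between the annotated genes. The 250 bases before the RefSeq start of Lhx8 share 240 bases with the 250 before that of AI606473, and they are shown because the gate gene and the gene most raised in its cells start from opposite ends of this stretch.
Lhx8, chr3:154330561-154330810, minus strand: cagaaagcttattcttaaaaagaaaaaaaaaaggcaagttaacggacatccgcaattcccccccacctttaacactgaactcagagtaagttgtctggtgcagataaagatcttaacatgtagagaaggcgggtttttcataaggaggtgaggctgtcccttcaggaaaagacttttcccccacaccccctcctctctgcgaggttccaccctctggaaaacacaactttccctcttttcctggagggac

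Other genes among the 10 most raised included a serotonin receptor gene and a cell surface gene. Htr1b had log2 ratios of 2.92 and 2.69 and Thy1 of 2.58 and 2.46, in control and mutant. Gria1 (a glutamate receptor subunit, 2.03 and 2.91), Zmat4 (1.98 and 2.57), Cpne8 (2.44 and 1.83) and Gm30692 (2.08 and 1.73) followed. Tbx3, a T-box transcription factor gene, was at 163 and 154 CPM against 49.7 and 36.7 CPM. Among the 10 most reduced were Foxc1 (a forkhead factor, -2.79 and -2.87), Emx2 (a homeobox factor, -2.50 and -3.06), Cntfr (a receptor gene, -2.81 and -3.03), Rspo1 (a Wnt agonist, -2.16 and -1.97) and Ebf2 (-1.90 and -2.99).

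The members were not uniform, and the UMIs of Dlx5, Dlx6, Alx1 and Alx4 divided them. Cells with a Dlx5 or Dlx6 UMI only made up 26.5% of control and 31.2% of mutant members, cells with an Alx1 or Alx4 UMI only 23.2% and 22.1%, cells with both 22.3% and 18.0%, and cells with none of the 4 genes 28.0% and 28.7%. Because a cell without a UMI may still express a gene, these are classes of detection and not types.

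Odontogenic and palatal genes followed this division. Osr2 was at 104 CPM in control and 77.5 CPM in mutant cells of the Dlx-only class and at 10.8 to 25.7 CPM in the other 3 classes. Barx1 was at 931 and 916 CPM in the Dlx-only class and at 939 and 909 CPM in the class with none, but at 144 to 257 CPM in both Alx classes. In the Alx-only class Barx1 was at 214 and 144 CPM, near the 197 and 152 CPM of other mesenchyme. Pitx1, a factor of the lower jaw and its molars, was at 437 and 232 CPM in the Dlx-only class and at 3.41 and 11.4 CPM in the Alx-only class. In the class with both it was at 125 and 66.6 CPM, and in the class with none at 9.42 and 42.1 CPM. Osr2 and Pitx1 were thus highest in the Dlx-only class, and Barx1 in that class and the class with none.

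The opposite distribution was seen for Msx1, a homeobox factor of tooth and palate mesenchyme. Msx1 was at 855 and 1001 CPM in the Alx-only class and at 1315 and 1179 CPM in the class with both, against 195 to 221 CPM in the other classes. Msx2, its paralog, was at 245 CPM in control and 171 CPM in mutant cells of the class with both and at 15.9 and 9.17 CPM in the Dlx-only class. Pax3, a paired box factor, was at 83.8 to 105 CPM in the Alx classes and at 5.203 to 12.3 CPM elsewhere. Lhx8, which chose the cells, was between 235 and 380 CPM over the 4 classes.

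**Figure D2:**
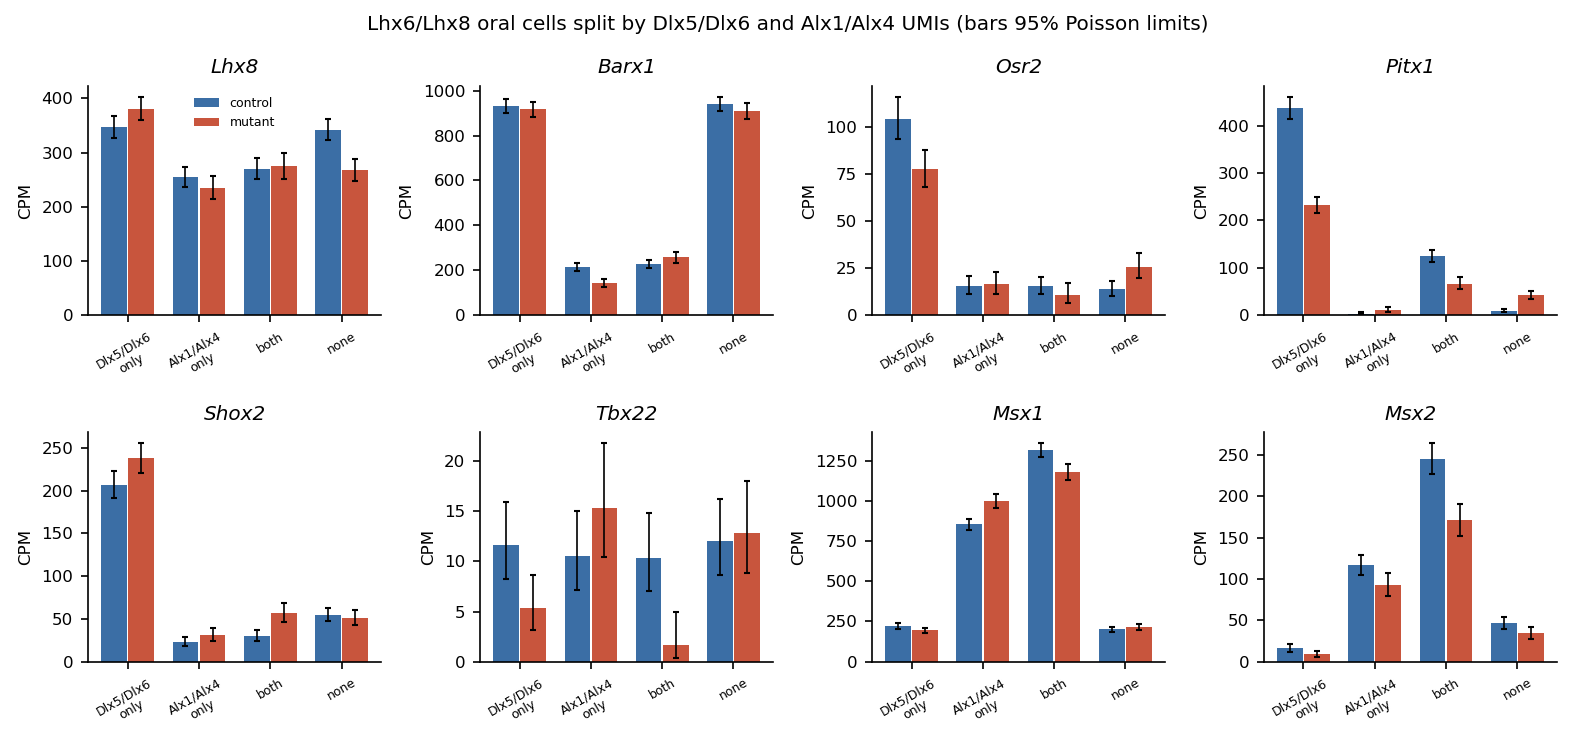
Level (CPM, vertical axes, from 0) of 8 genes in Lhx6/Lhx8 oral cells split by whether a cell had UMIs of Dlx5 or Dlx6 only, of Alx1 or Alx4 only, of both or of none, for control (blue) and mutant (red), with 95% Poisson limits. Osr2, Pitx1 and Shox2 were high in the Dlx-only class and Msx1 and Msx2 in the classes with Alx UMIs. Lhx8 is drawn for reference, since it chose the cells.

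The share of mesenchyme cells that passed the oral gate was 19.04% (17.7 to 20.4) in the control and 19.3% (17.8 to 20.9) in the mutant library, a difference of 0.28 points (-1.75 to 2.32). After thinning it was 12.5% and 12.3%, a difference of -0.15 points (-2.002 to 1.73). A difference within these limits was not detectable with these cell numbers. Among mesenchyme cells with at most 1 Lhx UMI and 0 Hox UMIs, those with 2 or more Alx1 and Alx4 UMIs were 34.9% of mesenchyme in the control and 23.8% in the mutant library, those with 2 or more Hand2 UMIs 8.38% and 4.73%, and those with 2 or more Dlx5 and Dlx6 UMIs and 0 of Hand2 9.29% and 3.44%. These cells belong to the other mesenchyme, and what their shares contribute to its ratios below was not tested. As a share of all kept cells, which include neural cells and depend on the sort, members were 11.9% of control and 8.84% of mutant cells.

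In the members, the targeted genes were sparse. Tfap2a (ENSMUSG00000021359, chr13:40715302-40738376) had 103 UMIs in control and 43 in mutant members, 8.18 and 4.52 CPM, a log2 ratio of -0.85 (-1.40 to -0.33). Tfap2b (ENSMUSG00000025927, chr1:19208914-19238576) had 42 and 54 UMIs, 3.33 and 5.68 CPM, a log2 ratio of 0.77 (0.16 to 1.39), but 10 cells held 76.2% of its control and 61.1% of its mutant UMIs. Cells with a UMI of either gene were 14.2% of control members and 13.2% of mutant ones. A 3′ library counts transcript ends and does not tell an intact from a recombined floxed allele, so these counts do not check the labels. In other mesenchyme the log2 ratios were -0.44 for Tfap2a and -0.26 for Tfap2b.

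Most genes were at like levels in mutant and control members. Of the 9762 genes, 79 (0.809%) were 1.5-fold or more higher in the mutant and 60 (0.615%) 1.5-fold or more lower, and the median log2 ratio was 0.01. Counting limits lay above 0 for 837 (8.57%) and below 0 for 712 (7.29%). The 1.5-fold change was shared with other mesenchyme for 35 of the 79 higher genes and for 18 of the 60 lower ones. Of the higher genes, 66 had 100 or more UMIs in neural cells too, and 19 of these were 1.5-fold higher there, as were 9 of 53 lower genes in their direction. The shares of all genes past 1.5-fold in other mesenchyme and in neural cells are not given here, so these counts have no background. The largest ratios include genes whose difference was not confined to the oral cells.

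Among the genes ranked, without those of the Y chromosome, Xist and Tsix, the 2 highest ratios belonged to overlapping X-linked genes. Gm15261 had 13 UMIs in control and 2181 in mutant members, a log2 ratio of 7.80 (7.02 to 8.71), and Arhgap6 had 24 and 895 UMIs, a log2 ratio of 5.63 (5.04 to 6.28). Both had like ratios in other mesenchyme (7.09 and 5.73) and in neural cells (8.92 and 7.38). Gm15261 lies inside Arhgap6 (chrX:168795099-169304435), and without a stated strand setting for counting, their reads cannot be told apart with certainty. Hccs overlaps the same locus and followed with 1.19, and Gt(ROSA)26Sor, the locus that carries the mTmG reporter, with 1.08.

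The rest of the 10 highest were lower in level. Calb2 (calretinin) had a log2 ratio of 1.08, with 84.9% of its mutant UMIs in 10 cells, Pou3f4 of 1.06, Hdhd3 of 1.05, Snhg3 of 1.04, Nefl (a neurofilament gene) of 1.02 and Gm47101 of 0.99. Among the 10 lowest were Hist1h2ak at -3.39, Dusp23 at -1.34, Adcy4 at -1.14, Hist1h2bm at -0.999, Sfxn4 at -0.98, Akr1e1 at -0.95, H2-K1 at -0.95, Zfp990 at -0.94 and Zfp128 at -0.90. Hist1h2ak, Hist1h2bm, H2-K1 and Zfp990 belong to families of near-identical copies, so their counts are uncertain. Adcy4 had 79 and 27 UMIs in members and a log2 ratio of 0.15 in other mesenchyme, a difference of -1.29 (-2.03 to -0.59).

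**Figure D3:**
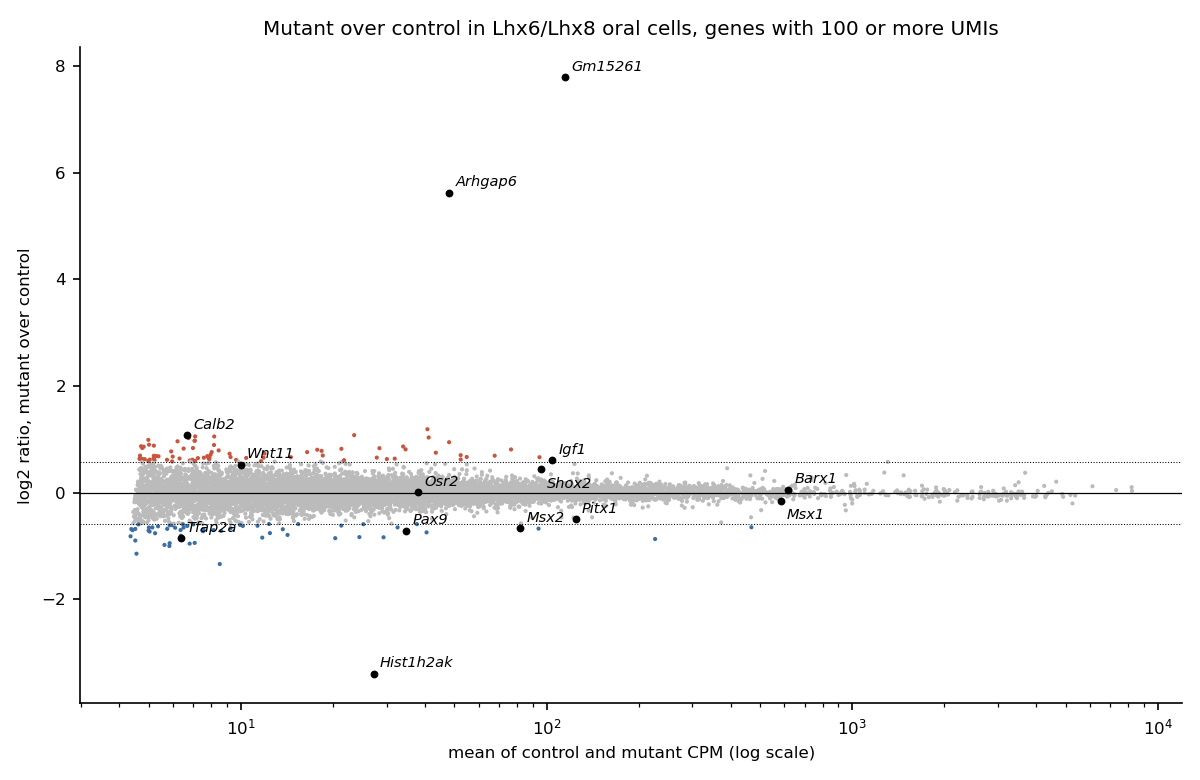
Log2 ratio of mutant over control (vertical axis) against the mean of both CPM values (horizontal log axis) for each of 9762 genes in Lhx6/Lhx8 oral cells, with dotted lines at 1.5-fold, genes past them in red (79 higher) and blue (60 lower), and named genes in black. Shox2 and Igf1 lay above and Msx2, Pax9 and Pitx1 below the main cloud at levels between 20 and 200 CPM, while Osr2, Barx1 and Msx1 lay near 0.

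Genes of tooth and palate development were the main interest of these cells. Of 21 listed odontogenic and palatal factors, 20 had 30 or more UMIs. Counting limits lay above 0 for 5 of them and below 0 for 4, where 7.93% of 11590 such genes had limits above and 6.73% below 0. These shares are the background for each list count below. The median log2 ratio of the list was -0.02, against 0.01 over all these genes and -0.26 for the same list in other mesenchyme.

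Msx2, Pax9 and Pitx1 had the lowest well-measured ratios of this list. Msx2 (chr13:53466884-53473074) was at 100.4 CPM in control and 63.5 CPM in mutant members, a log2 ratio of -0.66 (-0.80 to -0.52), and its UMIs were found in 40.1% and 31.0% of members. Pax9 (chr12:56691767-56712822), a paired box factor that early tooth development needs, was at 43.0 and 26.3 CPM, a log2 ratio of -0.71 (-0.93 to -0.49), and its UMIs were found in 32.3% and 23.3%. After thinning, the ratio of Pax9 was -0.38 and that of Msx2 -0.70. The shares of cells with a UMI then differed by -3.85 points (-9.47 to 2.02) for Pax9 and by -8.06 points (-14.6 to -1.31) for Msx2. The ratio of each was below 0 also in other mesenchyme, at -0.50 and -0.58. Both were lower in mutant members of each of the 4 Dlx and Alx classes.

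Pitx1 (chr13:55825051-55836192) was at 145 and 103 CPM, a log2 ratio of -0.49 (-0.61 to -0.38), which was -0.20 after thinning. It differed over the classes, because in members with a Dlx5 or Dlx6 UMI the ratio was -0.75, and in those without it was 2.10, from 43 control and 131 mutant UMIs. The difference between these ratios was -2.84 (-3.39 to -2.32). The share of cells with a Pitx1 UMI was 24.4% in control and 24.7% in mutant members.

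Shox2 was the odontogenic and palatal factor with the highest ratio. This homeobox gene of the palate (chr3:66971727-66981771) was at 81.2 CPM in control and 110 CPM in mutant members, a log2 ratio of 0.44 (0.31 to 0.56). In other mesenchyme it was at 54.0 and 37.5 CPM, a ratio of -0.52 (-0.63 to -0.42), so the oral ratio exceeded the other by 0.96 (0.80 to 1.12). The oral ratio of Shox2 was 0.48 in members with a Dlx5 or Dlx6 UMI and 0.07 in those without, a difference of 0.41 (0.10 to 0.72). Those without were not alike, with Shox2 at 23.2 and 31.2 CPM in the Alx-only class and at 54.5 and 51.1 CPM in the class with none. Its level was 207 and 238 CPM in the Dlx-only class (177 of 326 control and 154 of 243 mutant members with a Dlx UMI) and 30.1 and 56.9 CPM in the class with both. After thinning, the ratio in all members was 1.01. Mesenchyme cells with 2 or more Dlx5 and Dlx6 UMIs but at most 1 Lhx UMI went the other way, from 73.7 to 40.8 CPM, a ratio of -0.85 (-1.29 to -0.44).

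Barx1 differed little in members, with a log2 ratio of 0.06 (0.01 to 0.10), but was lower in other mesenchyme at -0.37, a difference of 0.42 (0.35 to 0.49). The ratio of Barx1 was -0.09 in members without a Dlx UMI and -0.03 without cells with 2 or more neural UMIs. Msx1 was at 614 and 554 CPM in members, a ratio of -0.15 (-0.20 to -0.10), and at -0.53 in other mesenchyme, a difference of 0.38 (0.31 to 0.44). It was -0.43 in members with a Dlx UMI and 0.17 in those without, a difference of -0.59 (-0.69 to -0.49). Of the members with a Dlx UMI, 149 of 326 in the control and 89 of 243 in the mutant also had an Alx UMI, the class in which Msx1 was high. Within the Dlx-only class Msx1 was at 221 and 195 CPM and within the class with both at 1315 and 1179 CPM. Osr2, with 0.01 (-0.19 to 0.21), gave no difference in its sum, while the share of cells with a UMI was higher in the mutant as given above. The classes differed, with Osr2 at 104 and 77.5 CPM in the Dlx-only class and at 13.7 and 25.7 CPM in the class with none. It was at 15.7 and 16.3 CPM in the Alx-only class and at 15.2 and 10.8 CPM in the class with both.

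Among the other factors of the list, Osr1, the paralog of Osr2, was higher at 0.31 (0.18 to 0.44), although it was -0.18 in members without a Dlx UMI. Mn1, a coactivator gene that palate growth needs, was higher at 0.30 (0.12 to 0.48), and Meis2, a TALE homeobox factor, at 0.15 (0.06 to 0.23) with all UMIs but at -0.09 after thinning. Tbx22, a T-box gene whose loss causes cleft palate, had a ratio of -0.34 (-0.75 to 0.06) in all members, -1.44 in members with a Dlx UMI and 0.30 in those without, a difference of -1.74 (-2.69 to -0.85), and 0.23 after thinning. Dlx1 and Dlx2, which pattern the upper jaw and its molars, had ratios of -0.06 and -0.04, each with limits on both sides of 0, and of 0.22 and -0.03 after thinning.

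Of 13 listed LIM cofactor and LIM genes, which include the LIM-homeodomain genes Lhx2 and Isl1, 10 were measured. Limits lay above 0 for 2 and below 0 for 0, beside 7.93% and 6.73% of all genes. Isl1 had a ratio of -1.18, with limits on both sides of 0, and of -1.11 in other mesenchyme. Ldb1, the adaptor that joins LIM factors into complexes, was at 78.8 CPM in both libraries, a log2 ratio of 0.00 (-0.14 to 0.14). The 2 genes with limits above 0 were sparse, Lhx2 with 31 and 59 UMIs and Lmo1 with 23 and 38, and the ratio of Lhx2, 1.33, was -0.13 after thinning. Ldb2 had a ratio of -0.15 (-0.40 to 0.11) against 0.52 in other mesenchyme, a difference of -0.67 (-0.94 to -0.40).

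Promoters of the leading odontogenic factors were searched for the motif GCCNNNGGC, which TFAP2 proteins are known to bind and which reads the same on both strands. In the 250 bases before each RefSeq start on GRCm38.p6, the motif was found in 13.7% of 32851 windows, and in 24.6% of the 7795 genes among the 9762 that matched a window. It was found in 11 of 52 matched genes 1.5-fold higher in the mutant and in 10 of 42 lower ones. The windows of Pax9, Msx2 and Shox2, which are among the odontogenic factors whose limits excluded 0, and of Lhx8 above held 0 matches. They are shown beside those of Spry2 and Flrt2, which held matches, given in capitals, and had oral ratios of -0.32 and -0.26. Genes with higher ratios also held matches in a window, among them Wnt11 (0.53), Col4a1 (0.37) and Cyp26a1 (0.90).
Pax9, chr12:56695221-56695470, plus strand: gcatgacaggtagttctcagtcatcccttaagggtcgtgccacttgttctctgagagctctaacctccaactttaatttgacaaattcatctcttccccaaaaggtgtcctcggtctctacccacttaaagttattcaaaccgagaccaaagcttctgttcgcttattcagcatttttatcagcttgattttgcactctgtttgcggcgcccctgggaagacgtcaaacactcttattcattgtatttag
Msx2, chr13:53472781-53473030, minus strand: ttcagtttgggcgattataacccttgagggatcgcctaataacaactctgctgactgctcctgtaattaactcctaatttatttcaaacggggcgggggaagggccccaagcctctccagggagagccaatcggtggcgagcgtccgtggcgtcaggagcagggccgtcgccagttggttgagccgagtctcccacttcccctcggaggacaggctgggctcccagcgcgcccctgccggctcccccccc
Shox2, chr3:66981772-66982021, minus strand: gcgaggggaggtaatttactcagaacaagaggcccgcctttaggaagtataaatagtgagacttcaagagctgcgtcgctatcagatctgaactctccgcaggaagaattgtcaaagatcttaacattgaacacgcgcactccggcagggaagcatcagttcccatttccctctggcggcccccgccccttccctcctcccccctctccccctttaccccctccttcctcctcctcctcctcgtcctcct
Spry2, chr14:105896820-105897069, minus strand: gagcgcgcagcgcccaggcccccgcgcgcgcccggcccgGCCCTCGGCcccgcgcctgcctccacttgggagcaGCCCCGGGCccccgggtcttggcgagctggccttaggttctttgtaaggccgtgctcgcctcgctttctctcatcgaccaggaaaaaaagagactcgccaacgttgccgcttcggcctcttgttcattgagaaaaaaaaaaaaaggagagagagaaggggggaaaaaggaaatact
Flrt2, chr12:95691976-95692225, plus strand: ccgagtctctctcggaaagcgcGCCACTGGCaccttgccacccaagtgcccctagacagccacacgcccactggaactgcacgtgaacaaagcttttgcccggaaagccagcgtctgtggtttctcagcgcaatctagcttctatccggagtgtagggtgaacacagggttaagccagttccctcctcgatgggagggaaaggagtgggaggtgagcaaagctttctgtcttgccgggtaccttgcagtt
A match is a description of letters and not a bound site, and no match says only that these letters are absent from this window. The windows of Pax9 and Msx2 lie inside the gene spans given above, so bases before the starts of those spans were not searched. Spry2 held 2 matches, at 211 and 176 bases before its start, and Flrt2 held 1, at 228 bases before its start.

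Genes of other facial regions were read in the same way. Of 7 measured genes that mark the frontonasal region, limits lay above 0 for 0 and below 0 for 3, beside 7.93% and 6.73% of all genes. Their median was -0.33, against -0.60 in other mesenchyme. A list of 7 measured genes picked earlier as reduced in these same libraries shares genes with the frontonasal list. It had limits below 0 for 4 and above 0 for 0. The direction of both is therefore not independent evidence. Crabp1, a retinoic acid binding protein gene, was at 1062 and 845 CPM, a log2 ratio of -0.33 (-0.37 to -0.29), and at -0.99 in other mesenchyme, a difference of 0.66 (0.62 to 0.71). Alx1 was at 142 and 103 CPM, a ratio of -0.47 (-0.58 to -0.35), against -0.74 in other mesenchyme. Alx4 was at 30.9 and 21.4 CPM, a ratio of -0.53 (-0.78 to -0.28), against -0.37 in other mesenchyme. Both stood beside a share of cells with either that differed by -5.43 points (-11.2 to 0.46). Pax3 had a ratio of 0.00 (-0.18 to 0.18) in members and -0.60 in other mesenchyme, a difference of 0.60 (0.40 to 0.81).

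Lower jaw genes had a median of -0.18 over 7 measured genes, with limits below 0 for 1, beside 6.73% of all genes. This was Dlx6os1, an antisense transcript of the Dlx6 locus, at -0.53 (-0.87 to -0.20). Its ratio was -0.44 in other mesenchyme, 0.05 after thinning and 1.95 in members without a Dlx UMI. Dlx5 was at 74.6 and 68.4 CPM, a ratio of -0.13 (-0.27 to 0.02), and Dlx6 at -0.27 (-0.56 to 0.01). After thinning these ratios were 0.24 and 0.11. Gsc, a target of the endothelin pathway in the lower jaw, was at 13.97 and 16.8 CPM, a ratio of 0.27 (-0.05 to 0.59), against -0.59 in other mesenchyme, a difference of 0.85 (0.53 to 1.18).

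**Figure D4:**
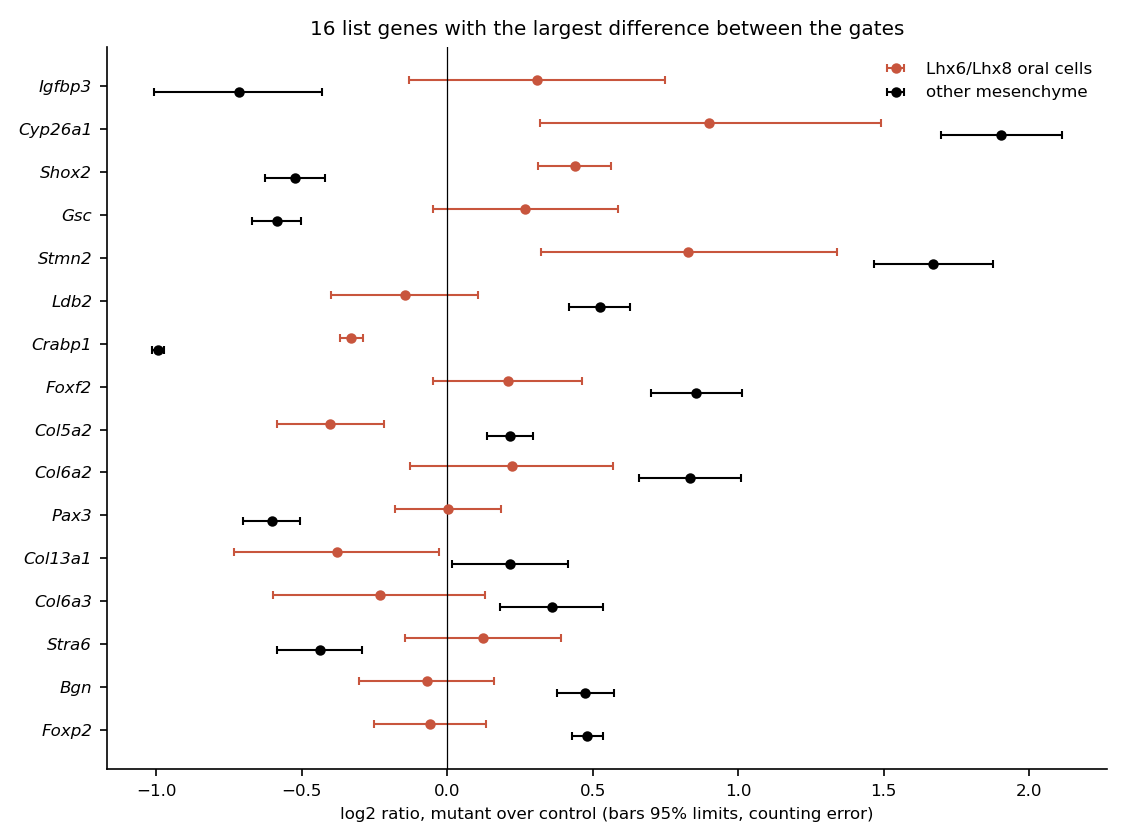
Log2 ratio of mutant over control (horizontal axis) in Lhx6/Lhx8 oral cells (red) and in other mesenchyme (black), with 95% counting limits, for the 16 listed genes with 100 or more UMIs and the largest difference between both. The ratios of Shox2, Gsc and Igfbp3 were above 0 in oral cells and below 0 in other mesenchyme. The oral limits of Gsc and Igfbp3 included 0. Col5a2 and Col13a1 had the reverse signs, and the ratio of Crabp1 was less negative in oral cells.

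Over all 9762 genes, the limits of the difference between the oral ratio and that of other mesenchyme lay above 0 for 586 and below 0 for 674. Among the 272 measured genes of the lists they lay above 0 for 46 and below 0 for 54. Oral and other cells came from the same libraries, so these differences share the embryos and the sort.

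FGF signalling, which induces Lhx genes in oral mesenchyme, gave few differences. The median log2 ratio of 13 measured FGF receptors, feedback genes and targets was 0.02. Limits lay above 0 for 0 and below 0 for 1, beside 7.93% and 6.73% of all genes. The 1 gene was Spry2, an antagonist of the pathway, at 35.6 and 28.5 CPM, a ratio of -0.32 (-0.55 to -0.10), which was 0.48 after thinning and 0.03 in members without a Dlx UMI. Dusp6, a phosphatase that reports the pathway, was at 129 and 133 CPM, a ratio of 0.04 (-0.06 to 0.15), and the ETS factors Etv4 and Etv5 had ratios of 0.02 and -0.02.

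Among 10 measured hedgehog genes, limits lay above 0 for 3 and below 0 for 2, beside 7.93% and 6.73% of all genes. Their median was -0.05. Ptch1, the receptor and a target of the pathway, was at 87.0 and 102 CPM, a ratio of 0.23 (0.10 to 0.35). Gas1, a co-receptor, was at 192 and 229 CPM, a ratio of 0.25 (0.17 to 0.33). Cdon, another co-receptor, was lower at -0.40 (-0.73 to -0.08), as was the effector gene Gli3 at -0.14 (-0.26 to -0.01), whereas Gli1, a direct target, had a ratio of -0.19 (-0.51 to 0.12). The co-receptor genes Gas1 and Cdon thus had limits on opposite sides of 0.

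Of 17 measured BMP genes, limits lay below 0 for 6 and above 0 for 0, where 6.73% of all genes lay below and 7.93% above. The median was -0.09 in members and -0.10 in other mesenchyme, but 0.12 in members without a Dlx UMI. Bambi, a decoy receptor, had a ratio of -0.29 (-0.45 to -0.13), Smad1, a signal transducer, of -0.26 (-0.42 to -0.09), and Smad7, an inhibitory Smad, of -0.25 (-0.41 to -0.09). The target genes Id1, Id2 and Id3 had ratios of -0.17 (-0.24 to -0.10), -0.10 (-0.16 to -0.04) and -0.07 (-0.13 to -0.01). Id2, Id3 and Bambi were at 0.12, 0.12 and 0.03 in members without a Dlx UMI. Bmp4, the ligand gene that Msx factors regulate in tooth mesenchyme, was at 58.2 and 54.7 CPM, a ratio of -0.09 (-0.25 to 0.07), which was 0.37 in members without a Dlx UMI.

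Wnt genes had limits above 0 for 7 of 22 measured and below 0 for 1, beside 7.93% and 6.73% of all genes, and a median of 0.06. Wnt5a, a ligand of jaw and palate outgrowth, was at 92.3 and 104 CPM, a ratio of 0.17 (0.04 to 0.29), against -0.16 in other mesenchyme, a difference of 0.32 (0.18 to 0.47). Wnt11 had a ratio of 0.53 (0.13 to 0.93), and the secreted antagonists Sfrp1 and Sfrp2 of 0.22 (0.11 to 0.33) and 0.17 (0.08 to 0.27), the latter -0.11 after thinning. Axin2, a general target of the pathway, had a ratio of 0.12 (-0.03 to 0.28). Notum, a secreted antagonist, had 50 and 15 UMIs, a ratio of -1.33, and 10 cells held 80.0% of its mutant UMIs.

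Forkhead genes, in part targets of hedgehog signalling in the palate, had limits above 0 for 4 of 12 measured and below 0 for 1. Over all genes these shares were 7.93% and 6.73%. The forkhead median was 0.12, against 0.37 in other mesenchyme. Foxd1 was at 25.7 and 35.2 CPM, a ratio of 0.45 (0.23 to 0.68), and Foxp1 at 85.2 and 103 CPM, a ratio of 0.27 (0.14 to 0.40), which became -0.01 after thinning. Foxf2 and Foxp2, at 0.86 and 0.48 in other mesenchyme, had ratios of 0.21 (-0.05 to 0.46) and -0.06 (-0.25 to 0.13) in members. Retinoid genes had a median of -0.01 over 13 measured. Limits lay above 0 for 1 and below 0 for 1, beside 7.93% and 6.73% of all genes. The higher one, Cyp26a1, which breaks down retinoic acid, had 44 and 62 UMIs, a ratio of 0.90 (0.32 to 1.49), against 1.90 in other mesenchyme, and with 4 or more Lhx UMIs required it was -0.22.

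**Figure D5:**
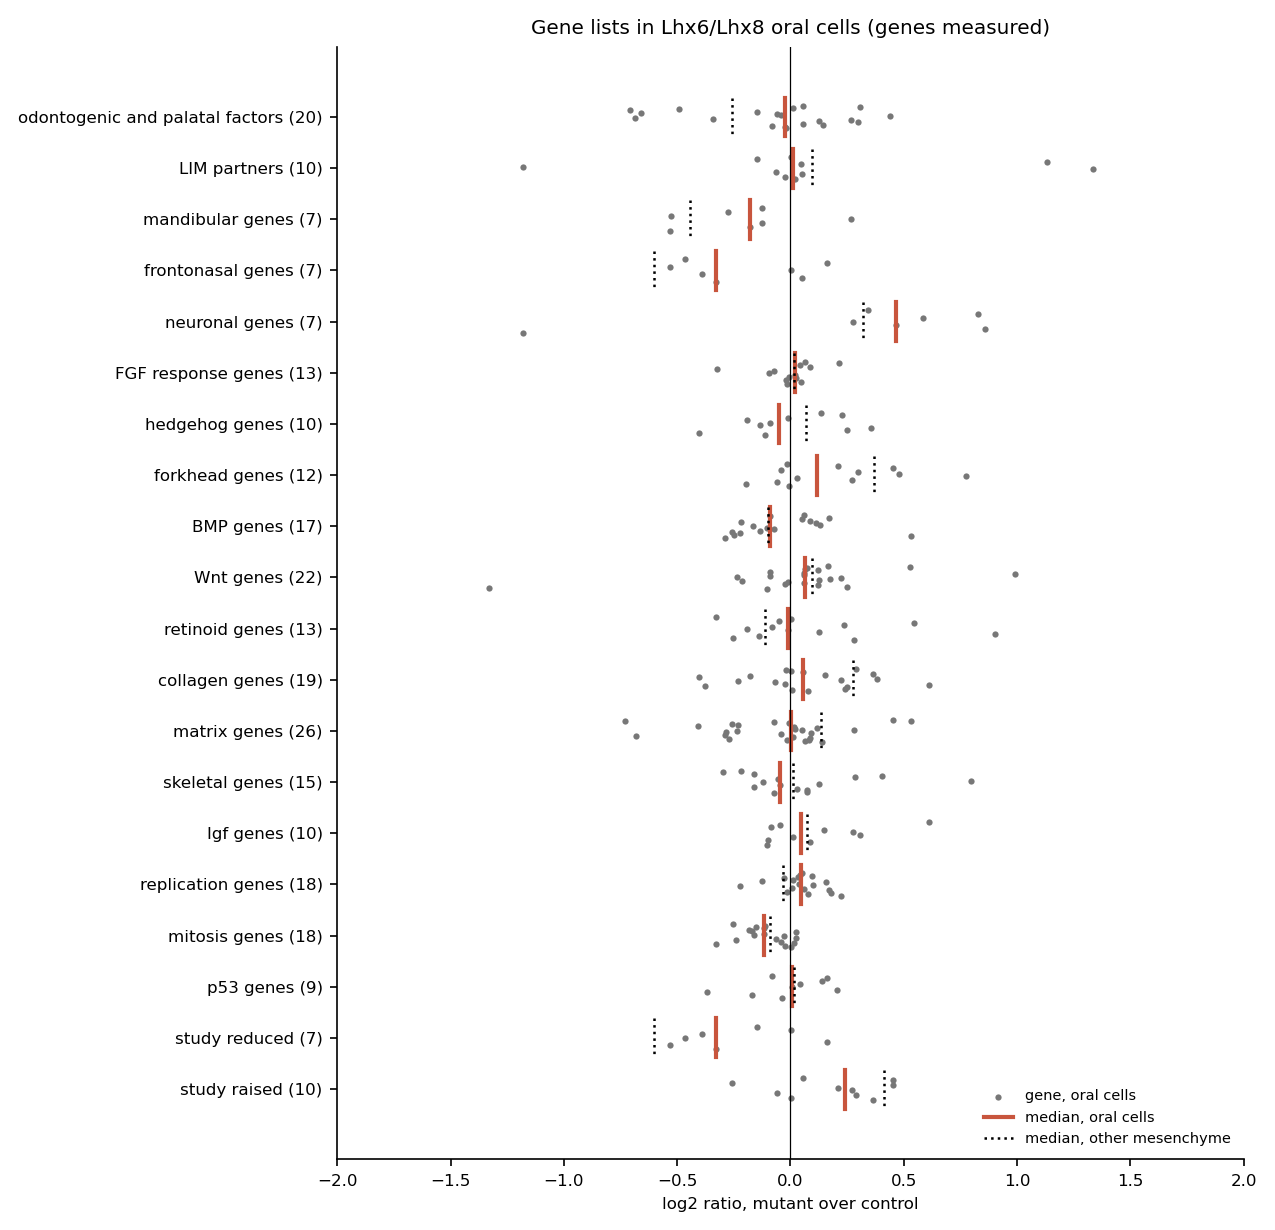
Log2 ratio of mutant over control (horizontal axis) for each measured gene (grey points) of 20 gene lists in Lhx6/Lhx8 oral cells, with the number of genes in brackets, the median in oral cells (red line) and the median of the same genes in other mesenchyme (dotted line). The medians of the frontonasal, forkhead, collagen and odontogenic lists lay nearer to 0 in oral cells than in other mesenchyme.

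By list medians, matrix genes were higher in other mesenchyme of the mutant but less so in members. Of 19 measured collagen genes, limits lay above 0 for 4 and below 0 for 2, with a median of 0.06 against 0.28 in other mesenchyme, and the difference between both had limits below 0 for 12. Col4a1, a basement membrane collagen, was at 107 and 137 CPM, a ratio of 0.37 (0.25 to 0.48), against 0.21 in other mesenchyme. Col1a1 was at 59.8 and 73.1 CPM, a ratio of 0.29 (0.14 to 0.44), against 0.56. Col5a2, a fibrillar collagen, was lower at 53.5 and 40.5 CPM, a ratio of -0.40 (-0.59 to -0.22), against 0.22 in other mesenchyme. Col13a1 had a ratio of -0.38 (-0.73 to -0.03), against 0.22.

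Of 26 other measured matrix genes, limits lay above 0 for 6 and below 0 for 3, beside 7.93% and 6.73% of all genes. Their median was 0.00, against 0.14 in other mesenchyme. Lum (lumican) was at 35.3 and 51.0 CPM, a ratio of 0.53 (0.34 to 0.72), which was -0.39 in members without a Dlx UMI, and Postn (periostin) at 0.45 (0.15 to 0.75), which was 0.08 after thinning. Flrt2, a transmembrane protein gene, was lower at 65.6 and 54.8 CPM, a ratio of -0.26 (-0.42 to -0.10), against 0.21 in other mesenchyme, a difference of -0.47 (-0.64 to -0.30). A list of 10 measured genes picked earlier as raised in these same libraries, and thus no independent evidence, had limits above 0 for 5 and below 0 for 1 in members.

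Cartilage and bone regulators were measured for 15 genes. Limits lay above 0 for 2 and below 0 for 2, beside 7.93% and 6.73% of all genes. Sox9 and Sox5, regulators of cartilage, had ratios of -0.22 (-0.33 to -0.11) and -0.30 (-0.47 to -0.13), and Runx2, the regulator of bone, of 0.29 (0.03 to 0.54). Sox9 and Sox5 had ratios below 0 also in other mesenchyme, at -0.09 and -0.23. Sox6, of the same list, was at -0.16 in members, with limits on both sides of 0, and at 0.18 in other mesenchyme.

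Igf1, a growth factor gene, was higher in mutant members with all UMIs. It was at 82.7 and 126 CPM, a log2 ratio of 0.61 (0.49 to 0.73), against 0.17 in other mesenchyme, a difference of 0.44 (0.31 to 0.57). After thinning, the ratio of Igf1 in members was 0.15. It was 0.57 in members without and 0.71 in members with a Dlx UMI. Of the 10 measured genes of the Igf list, limits lay above 0 for 3 and below 0 for 1, beside 7.93% and 6.73% of all genes. Igfbp2, a binding protein gene, had a ratio of 0.28 (0.17 to 0.38) and Cdkn1c, a growth-restricting cell cycle inhibitor, of -0.11 (-0.16 to -0.05), against 0.26 in other mesenchyme, a difference of -0.36 (-0.42 to -0.31), but of 0.02 after thinning and 0.12 in members without a Dlx UMI.

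Mitosis genes had limits below 0 for 9 of 18 and above 0 for 0, beside 6.73% and 7.93% of all genes, with a median of -0.11 in members and -0.09 in other mesenchyme. Ube2c, which ends mitosis, was at 561 and 447 CPM, a ratio of -0.33 (-0.38 to -0.27), Mki67, a proliferation marker, of -0.26 (-0.34 to -0.17), and Cenpf, a centromere protein gene, of -0.24 (-0.31 to -0.17). Replication genes, in contrast, had limits above 0 for 4 of 18 and below 0 for 2, with a median of 0.05. Of 9 measured p53 target genes, 0 had limits on 1 side of 0.

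Markers of other cells were counted in the members. Summed over 8 genes each, neuronal markers were at 48.4 CPM in control and 63.4 CPM in mutant members and neural progenitor markers at 11.04 and 19.3 CPM, and 6 glial markers were at 12.7 and 17.8 CPM. Neural cells were a larger part of the mutant library, with 1935 against 1260 cells, and 44.3% of mutant and 32.8% of control members had 2 or more UMIs of 21 neural genes. Blood genes were at 10.96 CPM in control and 0.84 CPM in mutant members. The mural list summed to 58.1 and 59.5 CPM, the muscle list to 6.91 and 5.47 CPM, the epithelial list to 3.33 and 3.37 CPM and the endothelial list to 0.40 and 1.16 CPM. Within these lists Acta2 (mural cells), Cdh5 and Cldn5 (endothelium), and Krt5 and Krt14 (epithelium) each had 0 UMIs in both libraries. The part of neural transcripts in the results was not tested beyond leaving out cells with 2 or more such UMIs, under which Shox2, Msx2, Pax9, Pitx1 and Igf1 had ratios of 0.40, -0.73, -1.05, -0.72 and 0.63.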

How the data were processed

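Single cells of 1 control and 1 mutant library were profiled with 10x 3′ chemistry. Per the labels the reads were aligned to mm10, and the file headers name Cell Ranger 6.0.0. The strand setting is not given in the sources used here. The deposited matrices hold raw UMI counts per gene and barcode, without normalization by the authors. Here barcodes with 200 to 7500 genes and at most 10% mitochondrial UMIs were kept. UMIs were summed per library and gate and given as CPM with exact Poisson limits, ratios with exact conditional binomial limits and shares with exact Clopper-Pearson limits, at 95%. Differences of ratios and shares combined the limits of both terms. Genes needed 100 UMIs over both libraries, list genes 30, and 11 gate genes were left out. Genes of the Y chromosome, Xist and Tsix were also left out of the counts and rankings. Doublets were kept and called with Scrublet in scanpy 1.11.5. Scaling alternatives used edgeR 4.0.16. Python 3.11.15 was used, and the calculation was tested on simulated data. The text names the 10 genes with the highest and the 10 with the lowest ratio, the 10 most raised and most reduced in members, and list genes, some of them picked after their values were seen. The members and lists were chosen with earlier results of these data known. Positions are from GENCODE and promoters from RefSeq, both on GRCm38. Some genes that these rules name are not reported here.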

Additional observations from a re-analysis of the deposited data

Results flagged for a closer look

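For 12 listed genes the counting limits of the ratio lay on one side of 0 in Lhx6/Lhx8 oral mesenchyme and on the opposite side in other mesenchyme. With 1 library per genotype, the difference was not tested over samples. The other mesenchyme mixes cell groups whose shares differed between the libraries, and the part of this was not tested. Above 0 in oral cells and below 0 elsewhere were Shox2 (log2 ratio 0.44 in oral cells), Barx1 (0.056), Wnt5a (0.17), Cdca7, a replication gene (0.22), and Tfap2b (0.77). Below 0 in oral cells and above 0 elsewhere were Col5a2 (-0.40), Col13a1 (-0.38), Flrt2 (-0.26), Foxp4 (-0.20), Cdkn1c (-0.11) and Tagln, a contractile gene with 27 control and 4 mutant UMIs (-2.35). Gpc3, a glypican gene, was also above 0 in oral cells (0.084) and below 0 elsewhere. Xist was found in 99.7% of control members, and transcripts of Y-linked genes in 89.1% of mutant members.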

How the results depend on the processing

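No paired analysis was possible because each group has 1 library, and for the same reason no library could be left out. Without a filter on low counts, 1206 genes were 1.5-fold higher and 1429 lower. With 50 UMIs required there were 180 and 145, and with 200 there were 32 and 25. After thinning to 5000 UMIs, list medians were 0.11 (mandibular), 0.20 (Tfap2), -0.25 (mitosis) and 0.52 (p53), and genes whose limits had excluded 0 but whose sign turned were Cdkn1c (0.021), Dlx6os1 (0.047), Foxp1 (-0.015), Gpc3 (-0.0011), Lhx2 (-0.13), Meis2 (-0.093), Sfrp2 (-0.11) and Spry2 (0.48). With 1 Lhx UMI sufficient, the frontonasal and study-reduced medians were both -0.45. With 4 required, the chemokine median was 0.094 and Cyp26a1 was at -0.22. In cells without Dlx5 or Dlx6 UMIs, medians were 0.063 (mandibular), -0.26 (Tfap2), 0.36 (Igf) and -0.067 (study reduced). Genes turned in the same sense there were Bambi (0.029), Barx1 (-0.090), Cdkn1c (0.12), Dlx6os1 (1.95), Foxp4 (0.12), Id2 and Id3 (both 0.12), Lum (-0.39), Msx1 (0.17), Osr1 (-0.18), Pitx1 (2.10) and Spry2 (0.026). The BMP median turned to 0.12 there. Genes with limits on both sides of 0 could turn as well, such as Dlx5 (0.24), Dlx6 (0.11), Dlx1 (0.22), Tbx22 (0.23) and Tbx3 (0.065) after thinning. With list genes held to 100 UMIs, the Tfap2 median was -0.44. Leaving out cells with 2 or more neural UMIs, an alternative chosen after seeing the data, put Barx1 at -0.026. The cause of these changes was not tested. TMM, median of ratios and doublet removal turned the sign of none of the named genes whose limits excluded 0. Sparse genes are limited by depth, since 3 counts correspond to 0.238 CPM in control and 0.316 CPM in mutant members.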

Other observations

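Genes of glycolysis and the response to low oxygen, a list assembled after values had been seen, were higher in the mutant library as a group. Of 24 measured genes in Lhx6/Lhx8 oral mesenchyme, counting limits lay above 0 for 19 and below 0 for 0. Over all genes these shares were 7.93% and 6.73%. The median log2 ratio of the list was 0.31, against 0.37 in other mesenchyme. Slc16a3, a lactate transporter gene, was at 24.1 CPM in control and 43.9 CPM in mutant members, a ratio of 0.87, which was 0.29 with cells thinned to 5000 UMIs. Pdk1, a kinase that limits entry of pyruvate into mitochondria, was at 15.4 and 27.2 CPM, a ratio of 0.82, and Bnip3, a mitochondrial gene induced by low oxygen, at 32.4 and 54.5 CPM, a ratio of 0.75. The glycolytic enzymes Tpi1 and Ldha had ratios of 0.41 and 0.33 (0.38 and 0.17 after thinning), while Gapdh was at 0.02. The list was chosen for its direction, so its count is a description, and handling of each pool and genotype cannot be told apart.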
